A study of Rattus norvegicus with 30 samples.

Results

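A set of 44 genes of the cell division cycle and DNA replication was followed in cultured rat hepatocytes exposed to phenobarbital. The set runs from the D cyclins that start a cycle to the motor and scaffold proteins that end it. Each gene was read by 1 probe set, the one with the highest mean log2 signal over all 30 arrays among the probe sets annotated to that gene alone. Of the 44 genes, 42 had such a probe set, out of 14217 genes with one in all. Cdc6 was not matched to a probe set, and Rrm2 was read only by probe sets shared with its relative Rrm2l1, so neither entered any count.

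The cells were frozen hepatocytes of male Sprague Dawley rats, bought from a supplier, plated on collagen under Matrigel and dosed on the third day of culture. Wells received vehicle, 300 µM phenobarbital or 3000 µM phenobarbital and were harvested 24 h or 48 h later, which gave 6 groups of 5 wells with 1 Rat Genome 230 2.0 array each. The vehicle is named water in one label and culture medium in another. The labels call the 5 wells of a group independent cultures and number no animals, so p-values here measure the spread between wells and not between rats. The labels do not give the age of the animals.

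The cell cycle is driven by cyclins bound to cyclin-dependent kinases. In G1, D cyclins with Cdk4 and then E cyclins with Cdk2 phosphorylate the retinoblastoma protein, which frees E2F factors to switch on the genes of DNA replication. In S phase the MCM helicase, loaded at origins by Cdc6 and Cdt1, unwinds DNA ahead of polymerases held by the sliding clamp Pcna. Mitosis follows under Cdk1 with B cyclins, and the anaphase promoting complex ends it by marking its regulators for destruction. Hepatocytes of the adult liver rest outside the cycle but can return to it after tissue loss, and phenobarbital is known as a mitogen of rodent liver in vivo. Hepatocytes in culture divide little unless they receive growth factors.

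E2F factors bind a short GC-rich motif, and the promoters of genes that carry it are shown because they are the best known link between the G1 genes and the replication genes of the set. RefSeq promoters on the GRCr8 assembly were available for 34 of the 44 genes, and the 250 bases before the gene start were searched on both strands for TTTCCCGC, TTTCGCGC, TTTGCCGC and TTTGGCGC. Of the 34 promoters, 7 held a match (20.6%), against 1.73% of 33469 promoters in the table and 2.21% of the 21842 promoters of protein-coding genes. The 7 were those of Mcm2, Mcm5, Mcm6, Mcm7, Tyms, Cdk1 and Stmn1. The sequences below read 5′ to 3′ in the direction of transcription and end at the base before the gene start. Capitals mark the E2F matches, and a capital run of over 8 letters is a pair of matches on opposite strands that share bases.
Mcm2, chr4:122918095-122918344, minus strand: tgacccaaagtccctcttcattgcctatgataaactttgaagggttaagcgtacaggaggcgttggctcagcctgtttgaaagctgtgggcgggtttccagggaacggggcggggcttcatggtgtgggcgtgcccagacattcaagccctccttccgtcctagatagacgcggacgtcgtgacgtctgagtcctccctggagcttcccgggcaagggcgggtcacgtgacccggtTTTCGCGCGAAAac
Mcm5, chr19:13488563-13488812, plus strand: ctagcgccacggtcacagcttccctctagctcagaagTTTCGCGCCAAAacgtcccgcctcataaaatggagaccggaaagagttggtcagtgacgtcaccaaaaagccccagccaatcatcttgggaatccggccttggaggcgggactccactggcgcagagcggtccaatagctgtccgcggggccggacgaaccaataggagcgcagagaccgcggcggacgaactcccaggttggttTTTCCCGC
Mcm6, chr13:42404353-42404602, minus strand: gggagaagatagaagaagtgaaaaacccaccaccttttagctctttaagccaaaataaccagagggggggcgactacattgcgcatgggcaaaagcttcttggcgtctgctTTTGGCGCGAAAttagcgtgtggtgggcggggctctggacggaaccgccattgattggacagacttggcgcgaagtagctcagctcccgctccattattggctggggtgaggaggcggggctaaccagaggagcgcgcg
Mcm7, chr12:22163179-22163428, minus strand: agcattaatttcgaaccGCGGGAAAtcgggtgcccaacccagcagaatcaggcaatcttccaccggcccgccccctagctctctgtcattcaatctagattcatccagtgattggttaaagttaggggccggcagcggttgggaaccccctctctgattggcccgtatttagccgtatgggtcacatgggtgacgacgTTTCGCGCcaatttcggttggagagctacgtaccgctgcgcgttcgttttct
Tyms, chr9:120776084-120776333, minus strand: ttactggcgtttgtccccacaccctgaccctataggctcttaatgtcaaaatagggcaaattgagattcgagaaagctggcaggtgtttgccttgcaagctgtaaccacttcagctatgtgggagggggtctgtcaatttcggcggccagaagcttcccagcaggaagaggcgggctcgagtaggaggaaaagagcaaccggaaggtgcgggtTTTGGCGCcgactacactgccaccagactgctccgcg
Stmn1, chr5:151964929-151965178, plus strand: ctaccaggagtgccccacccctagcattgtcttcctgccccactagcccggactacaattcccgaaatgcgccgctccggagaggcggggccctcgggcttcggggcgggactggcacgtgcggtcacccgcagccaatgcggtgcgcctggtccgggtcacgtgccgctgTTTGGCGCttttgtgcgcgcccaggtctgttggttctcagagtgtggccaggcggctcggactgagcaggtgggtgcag
Cdk1, chr20:19265043-19265292, plus strand: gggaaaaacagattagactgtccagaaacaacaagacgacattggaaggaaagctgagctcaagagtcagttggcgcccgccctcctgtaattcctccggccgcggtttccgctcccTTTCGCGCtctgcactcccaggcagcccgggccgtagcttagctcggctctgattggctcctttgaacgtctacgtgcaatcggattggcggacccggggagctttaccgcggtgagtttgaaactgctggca

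In Mcm2 the pair of matches began 14 and 10 bases before the start, in Mcm6 139 and 135 bases before it, and in Stmn1 the single match began 79 bases before it. Mcm5 held 3 matches, at 213, 209 and 8 bases, and its signal is described below as not called in any comparison. The CCAAT box (CCAAT) was present in 24 of the 34 promoters (70.6%, against 34% of all promoters), and the CHR element of mitotic genes (TTTGAA) in 9 (26.5%, against 16.2%). Of the 11 genes with a promoter here that were called higher at 3000 µM at either time, 4 held an E2F match and 8 a CCAAT box. Of the other 23, 3 held an E2F match and 16 a CCAAT box. These 23 include genes too dim to be tested, Cdk1 among them, so they are not all genes tested without a call. These letter matches describe the windows and do not show that a factor was bound.

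The signals were the deposited MAS5 intensities, with array medians between 349 and 424.9, and are given here as log2. Probe sets entered the test if at least 1 of the 6 group means was 8.58 or more, which is the median over all values. By this rule 30 of the 42 genes were tested. The other 12 are called near background: Ccna2, Cdkn3, Rb1, Cdt1, Cdk1, Plk1, Aurka, Bub1b, Cdc20, Top2a, Mki67 and Kif20a. Of the 30 tested genes, 9 passed only through a group given 3000 µM (Ccnd2, Ccne1, E2f1, Mcm4, Mcm6, Aurkb, Bub1, Ube2c and Prc1), so the counts below among tested genes lean toward genes high at that dose. The vehicle means of these 9 lay below the filter level, which leaves the size of their changes uncertain. A call is an adjusted p under 0.05 in limma, adjusted over all 16596 probe sets tested, and the words higher, lower, rose and fell refer to calls. On 18 hybridization control probe sets, array 1 of the vehicle group at 24 h had a mean log2 signal of 14.14. Array 4 of the 3000 µM group at 48 h had 14.57, and both stood above the 28 other arrays (12.997 to 13.35). Results for genes of the set that rest on these arrays are given without them too.

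**Figure D1:**
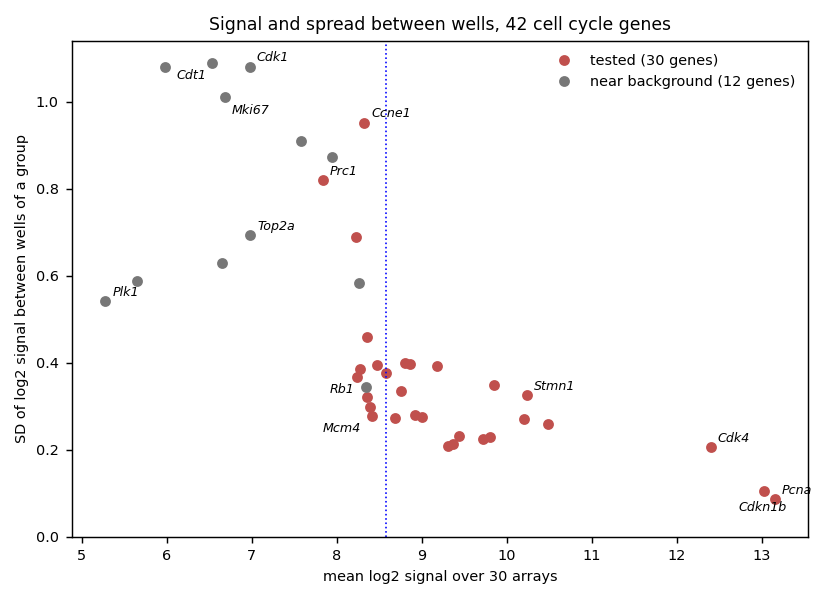
Each point is 1 of 42 genes, with its mean log2 signal over 30 arrays on the x axis and the SD of log2 signal between wells of a group, pooled over the 6 groups, on the y axis. Red points are the 30 tested genes and grey points the 12 near background, and the dotted line marks a log2 signal of 8.58. The median SD was 0.782 for the genes near background and 0.309 for the tested genes.

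The genes near background varied more from well to well than the tested genes. Their SD between wells had a median of 0.782 and a range of 0.343 to 1.09, against a median of 0.309 and a range of 0.0864 to 0.952 for the tested genes. Their highest group means lay between 5.44 and 8.51. As a rough guide to the floor, 6 probe sets of olfactory receptor genes had mean log2 signals from 5.53 to 9.90 with a median of 7.36, and 8 of the 42 genes had a mean at or below that median. Their 95th percentile was 9.48, and many tested genes had a mean under it, Mcm2, Mcm4, Mcm6, Ccne1 and Aurkb among them. This guide therefore does not set the tested genes clear of the floor. A gene near background may be transcribed at a level these arrays do not resolve, and its absence was not shown.

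At 3000 µM phenobarbital, part of the set was higher than in vehicle wells, chiefly cyclin D1, cyclin E1, subunits of the MCM helicase, Pcna, Aurkb and Stmn1. Several of these calls, those of Ccne1 and Aurkb among them, were lost in some fits that left out 1 array. At 24 h, 9 genes were higher and 1 (Diaph3) lower of 30 tested, and at 48 h 13 were higher and 2 (Ccne2 and Cdkn1b) lower. Ccne1, Mcm4 and Aurkb, higher at both times, entered the test only through a 3000 µM group. So did E2f1, Mcm6 and Prc1, higher at 48 h. For Prc1 this was the 3000 µM group at 24 h, and both of its compared means at 48 h lay below the filter level. The counts therefore lean toward genes high at that dose. Against these counts, 17.3% of all 16596 probe sets were called higher and 14.8% lower at 24 h, and 19.5% higher and 19.9% lower at 48 h. The median change over all 42 genes, those near background included, was 0.27 at 24 h and 0.31 at 48 h on the log2 scale, beside -0.0087 and 0.017 over all genes measured. The estimate was above 0 for 30 of 42 genes at 24 h and for 32 at 48 h, again with those near background. These are 71.4% and 76.2%, beside 49.1% and 51.8% of all genes measured. Both comparisons used different wells but shared an estimate of the spread. In both, 7 genes were higher: Ccnd1, Ccne1, Mcm2, Mcm4, Pcna, Aurkb and Stmn1. The share of all probe sets higher at both times was not counted, so this count has no share beside it. At 48 h the count of higher genes was 8 without array 2 of the vehicle or of the 3000 µM group, 7 with these 2 groups fitted alone and 6 with the filter set on the mean over all arrays. A well's RNA is pooled, so more cells with a transcript and more transcript per cell cannot be told apart.

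**Figure D2:**
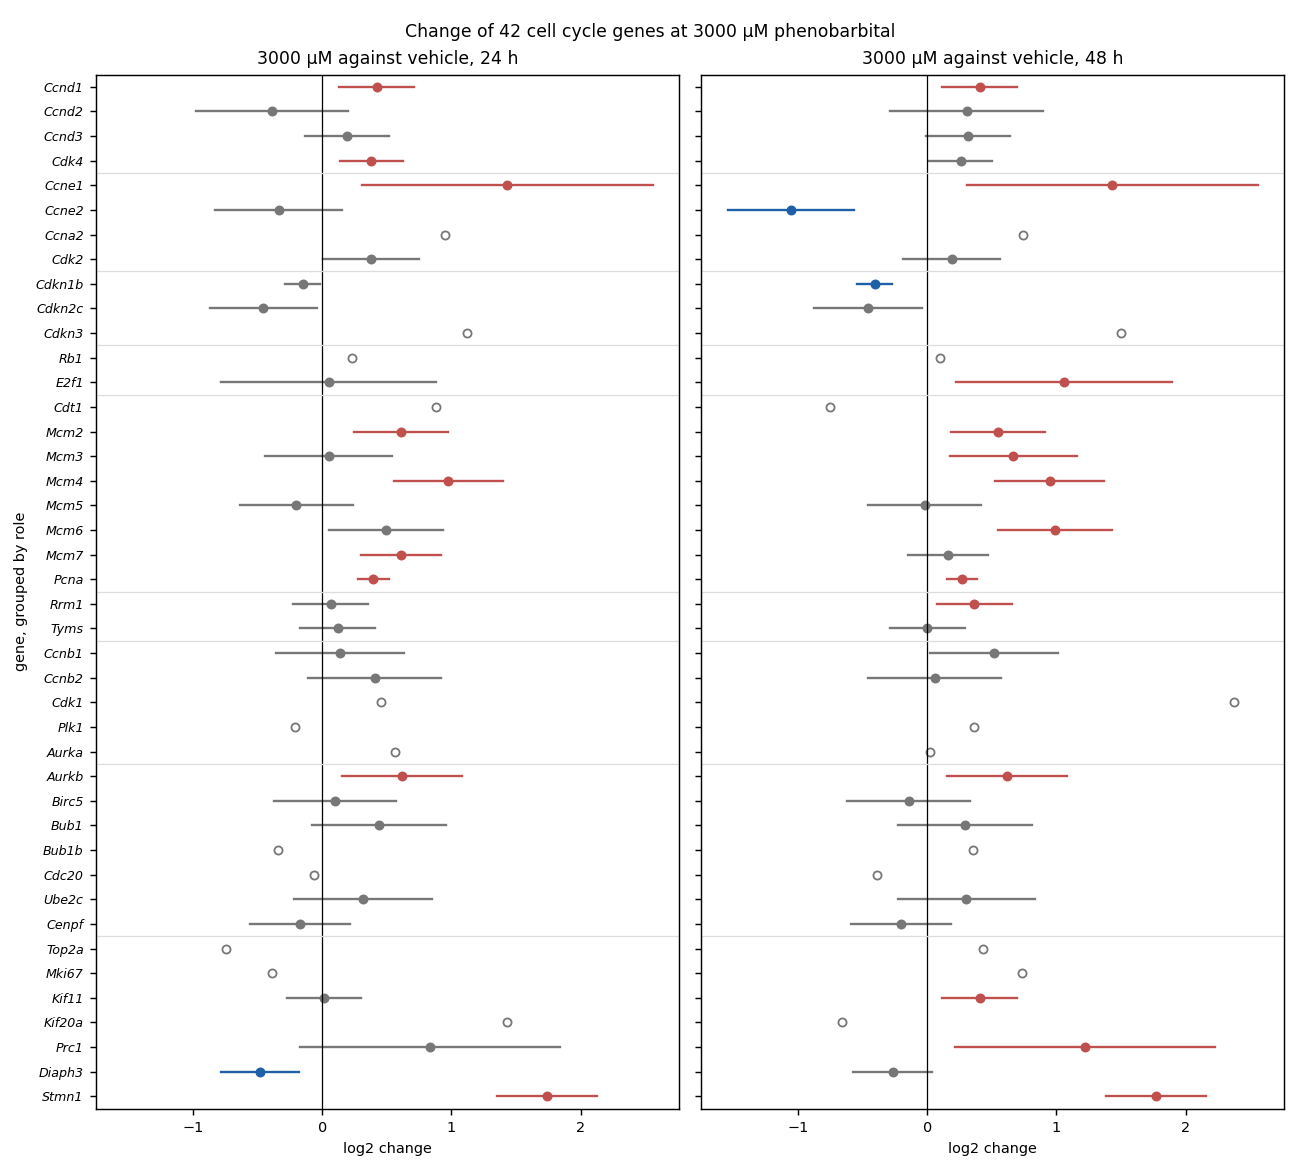
Log2 change of each of 42 genes between 3000 µM phenobarbital and vehicle at 24 h (left) and 48 h (right), ordered by role, with bars for the 95% confidence interval from limma. Red marks genes called higher, blue genes called lower, filled grey genes tested and not called, and open circles genes near background, which have no interval. Stmn1 has the largest change among the called genes at both times, 1.74 and 1.77.

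The lower dose moved few of these genes. At 300 µM and 24 h, Stmn1 was higher and Diaph3 lower, and the other 28 tested genes were not called, where 2.99% of all probe sets were called in either direction. At 300 µM and 48 h, Diaph3 was lower and the other 29 were not called, against 1.54% of all probe sets. No gene was called higher at 300 µM and 48 h by limma, with 1 at an unadjusted p under 0.05. The median change over 42 genes was -0.0086 at 24 h and 0.084 at 48 h.

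Compared directly with 300 µM, the 3000 µM wells had 7 genes higher and 0 lower at 24 h, when 13.9% of all probe sets were higher and 12.2% lower. The 7 were Cdk4, Mcm4, Mcm6, Pcna, Bub1, Prc1 and Stmn1, and at an unadjusted p under 0.05 limma gave 3 genes lower. At 48 h 9 were higher (Cdk4, Mcm3, Mcm4, Mcm6, Pcna, Tyms, Aurkb, Ube2c and Stmn1) and 3 lower (Ccne2, Cdkn1b and Cdkn2c), where 17.9% of all probe sets were higher and 16.9% lower. These comparisons share the 3000 µM wells with those against vehicle. Of the genes named, Mcm4, Mcm6, Aurkb, Bub1, Ube2c and Prc1 entered the test only through a 3000 µM group. The count at 24 h was 4 without array 2 or array 5 of the 3000 µM group or without array 4 of the 300 µM group.

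Among the D cyclins and their kinase, Ccnd1 was higher at both times at 3000 µM and Cdk4 at 24 h. Cyclin D1 is the cyclin through which growth signals enter the cycle. Its log2 signals at 24 h were 9.76, 9.76, 9.95, 9.30 and 9.62 in vehicle wells, 9.998, 10.31, 10.08, 9.74 and 9.64 at 300 µM, and 9.92, 10.20, 10.21, 10.17 and 9.99 at 3000 µM. At 48 h they were 9.75, 9.22, 9.46, 9.42 and 9.64 in vehicle wells, 9.91, 9.77, 9.77, 9.76 and 9.11 at 300 µM, and 9.93, 9.95, 10.01, 10.01 and 9.63 at 3000 µM. The 3000 µM wells lay toward the top at both times, and in each case the lowest of them overlapped the highest vehicle well. The change was 0.42 at 24 h (SE 0.143, limma adjusted p 0.0222) and 0.41 at 48 h (SE 0.143, adjusted p 0.0219). The call at 24 h was lost without array 4 of the vehicle group (0.33, adjusted p 0.0896) or without array 2 or 3 of the 3000 µM group (adjusted p 0.0506 and 0.053), and that at 48 h without array 2 of the vehicle group (0.34, adjusted p 0.073). At 300 µM the estimates were 0.27 (95% interval -0.016 to 0.56) and 0.17 (-0.12 to 0.46), neither called.

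Ccnd1 had 3 probe sets, and all were called higher at 3000 µM at both times. The second brightest gave changes of 1.23 at 24 h and 0.88 at 48 h (adjusted p 0.000163 and 0.00433), and the third 1.62 and 2.07 (adjusted p 0.0171 and 0.00187). Vehicle means of the second, 8.24 and 8.26, lay below the filter level. The third probe set was below the filter level in every vehicle well, so its change is imprecise. It entered the test only through the 3000 µM groups (means 9.23 and 9.18), so its calls are no independent support. At 300 µM and 48 h it ranged from 5.01 to 9.12 between wells.

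**Figure D3:**
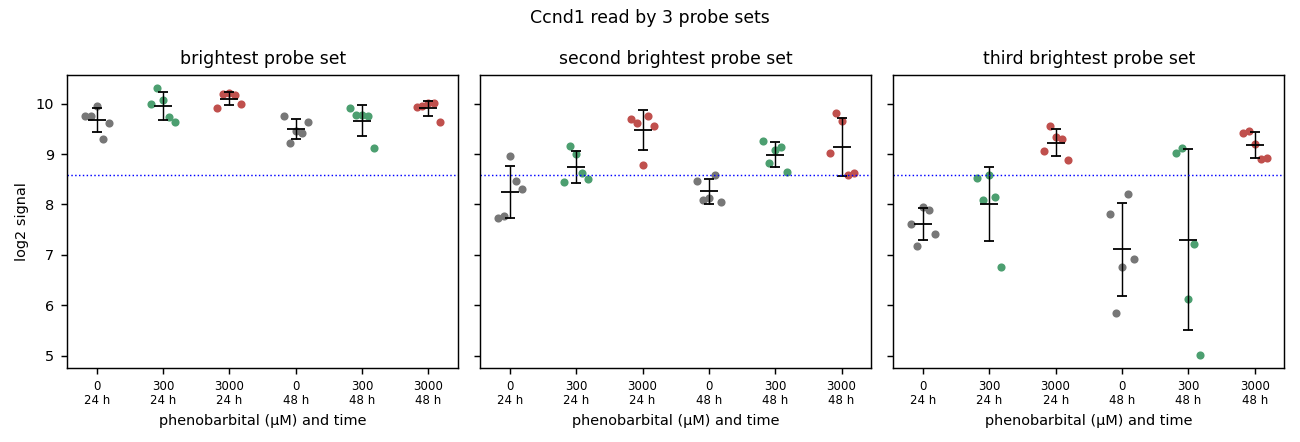
Log2 signal of Ccnd1 in each well from its 3 probe sets, by phenobarbital dose (0 for vehicle) and time. Points are wells (5 per group), bars are the mean and SD, and the dotted line is the filter level of 8.58. In the third brightest probe set all wells given 3000 µM lie above all vehicle wells at both times.

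Cdk4, the kinase partner of the D cyclins, went from 12.14 ± 0.248 in vehicle wells to 12.52 ± 0.16 (SD, n = 5 wells each) at 3000 µM and 24 h, a change of 0.38 (SE 0.119, limma adjusted p 0.0135). Without array 1 of the vehicle group, 1 of the arrays that stood apart, this was 0.29 (adjusted p 0.0619). At 48 h its estimate against vehicle was 0.26 (adjusted p 0.0825), and against 300 µM it was higher by 0.50 with no overlap between wells (adjusted p 0.00115). Ccnd2 was at -0.39 and 0.31 at the 2 times and Ccnd3 at 0.19 and 0.32, none called. The 95% intervals reached from -0.98 to 0.20 and from -0.29 to 0.90 for Ccnd2.

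Cyclin E1 was higher and cyclin E2 lower at 3000 µM. E cyclins activate Cdk2 at the step from G1 into S phase. Ccne1 log2 signals at 24 h were 5.26, 8.27, 8.95, 8.88 and 7.52 in vehicle wells, 8.22, 8.50, 8.76, 5.31 and 8.09 at 300 µM, and 9.59, 9.004, 9.10, 8.97 and 9.39 at 3000 µM. The 48 h values were 7.03, 8.64, 8.16, 6.54 and 8.48 in vehicle wells, 8.84, 8.21, 8.06, 7.96 and 8.05 at 300 µM, and 9.14, 9.23, 8.72, 9.31 and 9.61 at 3000 µM. All wells at 3000 µM lay above all vehicle wells at both times, and the vehicle wells were scattered, from 5.26 to 8.95 at 24 h and from 6.54 to 8.64 at 48 h. The fitted change was 1.43 at both times (SE 0.551, limma adjusted p 0.0458 and 0.0384), so these calls are close to the threshold. At 24 h it was 0.80 (adjusted p 0.223) without array 1 of the vehicle group, the array at 5.26, and the call was lost in 11 of the fits that left out 1 array. At 48 h it was lost in 6 such fits, with 1.13 (adjusted p 0.126) without array 4 of the vehicle group.

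Ccne2 log2 signals at 48 h were 9.07, 9.56, 9.36, 9.36 and 8.99 in vehicle wells, 9.10, 9.41, 9.15, 9.16 and 9.42 at 300 µM, and 7.31, 8.05, 9.14, 8.33 and 8.27 at 3000 µM. It fell in the 3000 µM wells, where 1 well stayed within the vehicle range. The change was -1.05 (SE 0.24, adjusted p 0.00062), and at 24 h it was -0.34 (adjusted p 0.315). A second Ccne2 probe set, too dim to test, was at 0.41 at 24 h and -0.28 at 48 h. Cdk2 was at 0.38 at 24 h and 0.19 at 48 h (limma adjusted p 0.116 and 0.446). At 24 h its lowest 3000 µM well (9.0634) and its highest vehicle well (9.0632) nearly coincided. Ccna2, cyclin A2 of S phase and G2, was near background, with group means from 6.06 to 7.08.

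Among the inhibitors of the kinases, Cdkn1b fell at 48 h. It encodes p27, which holds cyclin E and Cdk2 inactive in resting cells. Its log2 signals at 48 h were 13.27, 13.21, 13.22, 13.29 and 13.25 in vehicle wells, 13.20, 13.31, 13.10, 13.14 and 13.14 at 300 µM, and 12.89, 12.98, 12.93, 12.85 and 12.56 at 3000 µM. The 3000 µM wells lay below every other well at that time. The change against vehicle was -0.40 (SE 0.0665, adjusted p 8.04e-06), and against 300 µM -0.34 (adjusted p 0.000126). At 24 h it was -0.15 (95% interval -0.28 to -0.014, adjusted p 0.0861). Cdkn1b was also the only gene of the set called between the vehicle groups, higher at 48 h than at 24 h by 0.23 (adjusted p 0.0275), where 7.2% of all probe sets were called. That call was lost without array 1 or 3 of the vehicle group at 24 h, or without array 1, 4 or 5 of the vehicle group at 48 h.

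Cdkn2c, the Cdk4 inhibitor p18, had estimates of -0.46 at both times against vehicle (adjusted p 0.0869 and 0.0742) and was lower than at 300 µM at 48 h by -0.56 (adjusted p 0.0294). Its second probe set gave 0.083 and 0.30 against vehicle, not called, so the 2 probe sets disagree in sign. Cdkn3, a phosphatase that acts on cyclin-dependent kinases, was near background with group means from 6.74 to 8.51.

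E2f1, the first described E2F factor and itself an E2F target, was higher at 3000 µM at 48 h. Its log2 signals at that time were 6.10, 7.09, 7.99, 8.44 and 8.26 in vehicle wells, 9.12, 8.11, 7.51, 8.63 and 8.10 at 300 µM, and 8.87, 9.02, 8.15, 8.94 and 8.20 at 3000 µM. The groups overlapped, and the lowest vehicle wells lay far under the filter level. The change was 1.06 (SE 0.408, adjusted p 0.0383), and at 24 h 0.05 (adjusted p 0.944). Without array 1 or array 2 of the vehicle group it was 0.69 (adjusted p 0.175) or 0.94 (adjusted p 0.091). Without the 2 arrays that stood apart E2f1 fell under the filter and was not tested. The same held without array 1, 2 or 4 of the 3000 µM group. Rb1, the retinoblastoma gene, was near background with group means between 8.09 and 8.49.

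The 6 proteins Mcm2 to Mcm7 form a ring that is loaded on DNA in G1 and unwinds it in S phase. At 3000 µM, Mcm2, Mcm4 and Mcm7 were higher at 24 h and Mcm2, Mcm3, Mcm4 and Mcm6 at 48 h, while Mcm5 was called at neither time. The mean log2 signal of the 6 subunits, taken per array, was 8.62 to 9.09 in vehicle wells, 8.56 to 8.92 at 300 µM and 9.18 to 9.35 at 3000 µM at 24 h. At 48 h it was 8.49 to 8.90, 8.71 to 8.88 and 9.22 to 9.39. The 3000 µM wells did not overlap either other group at either time.

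**Figure D4:**
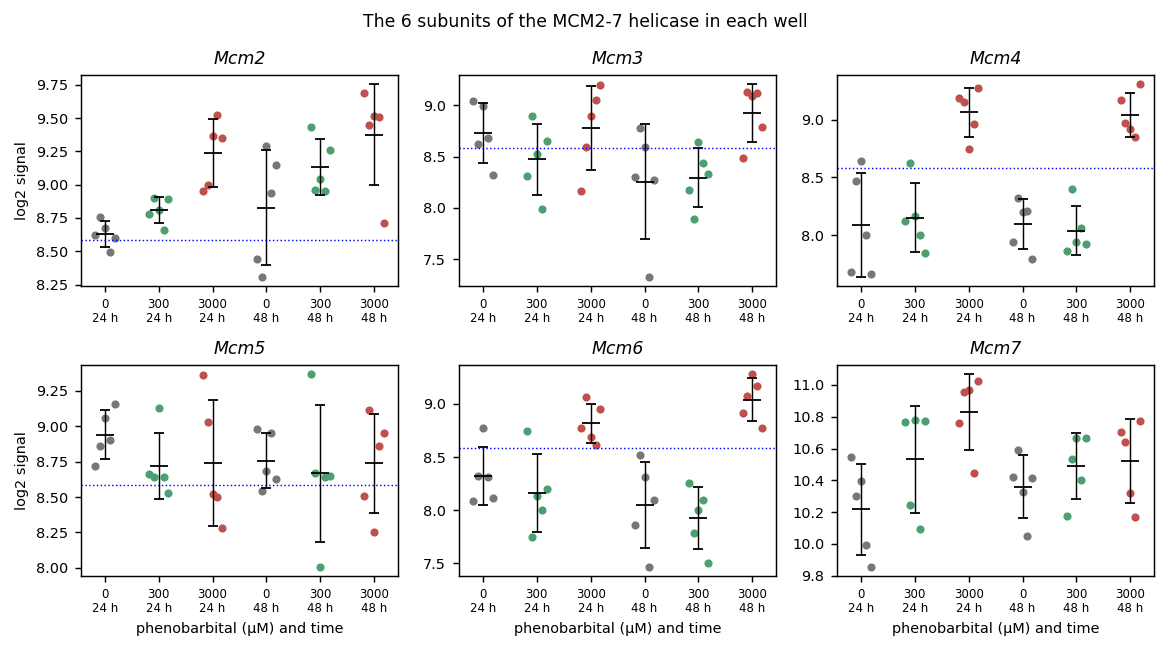
Log2 signal of Mcm2 to Mcm7 in each well by phenobarbital dose (0 for vehicle) and time, with y axes that differ between genes. Points are wells (5 per group), bars are the mean and SD, and the dotted line is the filter level of 8.58 where it falls within the axis. Mcm4 at 3000 µM stands clear of the other groups at both times, and the groups of Mcm5 overlap.

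Mcm4 log2 signals at 24 h were 7.68, 8.46, 8.64, 7.997 and 7.66 in vehicle wells, 8.12, 8.63, 8.17, 8.001 and 7.84 at 300 µM, and 9.19, 9.15, 8.74, 8.96 and 9.28 at 3000 µM. The corresponding 48 h signals were 7.94, 8.32, 8.20, 8.21 and 7.79 in vehicle wells, 7.86, 8.40, 7.94, 8.06 and 7.92 at 300 µM, and 9.17, 8.97, 8.92, 8.85 and 9.31 at 3000 µM. Every 3000 µM well lay above every vehicle and every 300 µM well of its time. The change against vehicle was 0.98 at 24 h and 0.95 at 48 h (SE 0.206 each, limma adjusted p 0.000355 and 0.000358). The vehicle means, 8.09 at both times, lay below the filter level, so the size of the rise is uncertain. At 300 µM the estimates were 0.062 (95% interval -0.36 to 0.48) and -0.057 (-0.48 to 0.36).

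Mcm2, whose promoter carries its E2F letters next to the start, had log2 signals at 24 h of 8.62, 8.76, 8.68, 8.50 and 8.60 in vehicle wells, 8.78, 8.90, 8.81, 8.66 and 8.90 at 300 µM, and 8.95, 8.997, 9.37, 9.53 and 9.35 at 3000 µM. At 48 h they were 8.44, 8.31, 9.29, 8.94 and 9.15 in vehicle wells, 9.43, 8.96, 9.04, 8.95 and 9.26 at 300 µM, and 9.69, 9.45, 9.51, 9.51 and 8.71 at 3000 µM. The 24 h groups at 0 and 3000 µM were separate, and at 48 h 1 treated well lay within the vehicle range. The change was 0.61 at 24 h (SE 0.179, adjusted p 0.00834) and 0.55 at 48 h (adjusted p 0.0142). The 48 h call was lost without array 1 (0.45, adjusted p 0.0557) or array 2 (0.42, adjusted p 0.0653) of the vehicle group.

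Mcm6 went from 8.05 ± 0.406 to 9.04 ± 0.201 (SD, n = 5) at 48 h, with no overlap between wells (change 0.99, SE 0.216, limma adjusted p 0.000376). At 24 h its estimate was 0.50 (adjusted p 0.0786), and it was higher than at 300 µM at both times (0.65 and 1.11, adjusted p 0.023 and 0.00011). Mcm7 rose at 24 h, from 10.22 ± 0.287 to 10.83 ± 0.237 (SD, n = 5, change 0.61, adjusted p 0.00205), and was at 0.16 at 48 h (adjusted p 0.436). Mcm3 was at 0.05 at 24 h and rose by 0.67 at 48 h (adjusted p 0.026). The Mcm3 call was lost without the arrays that stood apart (0.62, adjusted p 0.0561), and without array 4 of the vehicle group, which read 7.33, it was 0.44 (adjusted p 0.133). Leaving out array 2, 3 or 4 of the 3000 µM group also ended it (adjusted p 0.0584, 0.0559 and 0.0553). Mcm5 was at -0.20 (95% interval -0.63 to 0.24) and -0.018 (-0.45 to 0.42).

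Pcna, the clamp that holds DNA polymerase on its template, had the smallest spread between wells of the set and was higher at both times. The log2 signals at 24 h were 12.90, 13.08, 12.92, 13.005 and 13.05 in vehicle wells, 12.97, 12.98, 12.93, 13.02 and 12.98 at 300 µM, and 13.37, 13.32, 13.45, 13.46 and 13.33 at 3000 µM. The 48 h values were 13.06, 13.18, 13.09, 13.12 and 13.07 in vehicle wells, 12.999, 13.03, 13.08, 13.22 and 13.08 at 300 µM, and 13.34, 13.48, 13.41, 13.13 and 13.52 at 3000 µM. The groups were separate at 24 h, and at 48 h 1 well, on an array that stood apart, lay within the vehicle range. The change was 0.40 (SE 0.0577, adjusted p 1.68e-06) and 0.27 (adjusted p 0.000302), or 1.32-fold and 1.21-fold. At 300 µM the intervals were narrow, -0.13 to 0.10 at 24 h and -0.14 to 0.094 at 48 h. Cdt1, which loads the helicase with Cdc6, was near background with group means from 6.03 to 7.14.

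Of the nucleotide supply genes 1 was called against vehicle. Rrm1, the large subunit of ribonucleotide reductase, was at 0.065 at 24 h and rose by 0.36 at 48 h (SE 0.142, limma adjusted p 0.0402), from 9.20 ± 0.315 to 9.56 ± 0.228 (SD, n = 5). That call was lost in 7 of the fits that left out 1 array, with 0.29 (adjusted p 0.127) without array 5 of the vehicle group. Tyms, thymidylate synthase, was at 0.12 and 0.00079 against vehicle and was higher at 3000 µM than at 300 µM at 48 h by 0.46 (adjusted p 0.0113). The brighter probe set shared by Rrm2 and Rrm2l1 had group means of 7.44, 8.44 and 8.90 with rising dose at 24 h. At 48 h they were 7.51, 7.64 and 8.58. The change at 3000 µM was 1.46 (limma adjusted p 0.0102) and 1.08 (adjusted p 0.0507). This probe set entered the test only through the 3000 µM groups. Its vehicle means lay below the filter level, so the size of its change is uncertain. The share of each gene in it cannot be read.

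For the genes of mitotic entry there were no calls at either dose against vehicle. Ccnb1 and Ccnb2, the B cyclins that pair with Cdk1, were the only tested members. Ccnb1 was at 0.14 and 0.52 (adjusted p 0.717 and 0.0902) and Ccnb2 at 0.40 and 0.057 (adjusted p 0.241 and 0.887) at 3000 µM. Cdk1, the kinase of mitosis, was near background. At 24 h the log2 signals were 7.44, 6.85, 7.50, 7.54 and 6.46 in vehicle wells, 7.08, 4.82, 7.48, 7.25 and 7.94 at 300 µM, and 7.86, 8.13, 7.22, 6.93 and 7.96 at 3000 µM. The corresponding 48 h signals were 4.70, 4.58, 7.50, 7.27 and 4.65 in vehicle wells, 8.01, 6.58, 4.61, 7.50 and 4.88 at 300 µM, and 7.88, 8.75, 7.18, 8.14 and 8.62 at 3000 µM. The highest wells were at 3000 µM and 48 h, the groups overlapped, and the difference of means there, 2.37, rests on 3 vehicle wells under 5 and was not tested. Plk1 and Aurka, kinases of centrosome maturation and spindle assembly, were also near background, with Plk1 group means between 5.07 and 5.44.

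Among the genes of the spindle checkpoint and the anaphase promoting complex, Aurkb was higher at both times at 3000 µM. Aurora B is the kinase of the chromosomal passenger complex, which corrects attachments of chromosomes to the spindle. Its log2 signals at 24 h were 8.68, 8.12, 7.59, 8.02 and 7.53 in vehicle wells, 8.06, 8.22, 8.84, 8.18 and 8.30 at 300 µM, and 8.52, 8.68, 8.48, 8.63 and 8.71 at 3000 µM. At 48 h they were 8.16, 7.89, 8.38, 8.31 and 8.39 in vehicle wells, 8.60, 8.35, 7.87, 7.60 and 8.47 at 300 µM, and 8.36, 9.04, 9.02, 8.91 and 8.90 at 3000 µM. In each comparison 1 well kept the groups from being separate. The change was 0.62 at both times (SE 0.228, limma adjusted p 0.0364 and 0.0293). The call was lost in 6 fits without 1 array at 24 h (0.50, adjusted p 0.11, without array 5 of the vehicle group) and in 5 at 48 h (0.54, adjusted p 0.0796, without array 2 of the vehicle group).

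Birc5 (survivin), a partner of Aurora B in the same complex, was at 0.097 and -0.14 (adjusted p 0.795 and 0.667). Bub1, a checkpoint kinase, was at 0.44 and 0.29 against vehicle and higher than at 300 µM at 24 h by 0.73 (adjusted p 0.0316). Ube2c, the ubiquitin-conjugating enzyme of the anaphase promoting complex, was at 0.32 and 0.30 against vehicle and higher than at 300 µM at 48 h by 0.66 (adjusted p 0.0471). Cenpf, a kinetochore protein, was at -0.17 and -0.20. Bub1b and Cdc20, which meet in the checkpoint complex, were near background.

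Of the genes of chromosome and spindle mechanics, Stmn1 changed most. Stathmin binds tubulin and takes microtubules apart, and it is used as a sign of dividing and immature cells. The log2 signals at 24 h were 9.50, 9.65, 9.60, 8.78 and 9.43 in vehicle wells, 10.17, 10.41, 10.25, 9.82 and 10.05 at 300 µM, and 11.14, 11.13, 11.23, 11.06 and 11.10 at 3000 µM. The 3 dose groups were separate at 24 h and in the order of the dose. The 48 h values were 9.37, 9.95, 9.40, 8.58 and 10.03 in vehicle wells, 10.22, 10.15, 9.78, 9.98 and 10.18 at 300 µM, and 11.26, 11.53, 11.47, 10.79 and 11.14 at 3000 µM. At 48 h the 300 µM wells overlapped the vehicle wells, and the 3000 µM wells stood above both.

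At 3000 µM Stmn1 rose by 1.74 at 24 h and 1.77 at 48 h (SE 0.189 each, limma adjusted p 1.07e-08 and 3.95e-09), or 3.34-fold and 3.41-fold. At 300 µM it rose by 0.75 at 24 h (adjusted p 0.0217) and was at 0.59 at 48 h (95% interval 0.21 to 0.98, adjusted p 0.119). The step from 300 to 3000 µM was 0.99 and 1.18 (adjusted p 0.000144 and 7.81e-06). The call at 300 µM was lost without array 2 (0.68, adjusted p 0.0775) or array 3 (0.72, adjusted p 0.0565) of that group or without array 4 of the vehicle group (0.59, adjusted p 0.0888).

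**Figure D5:**
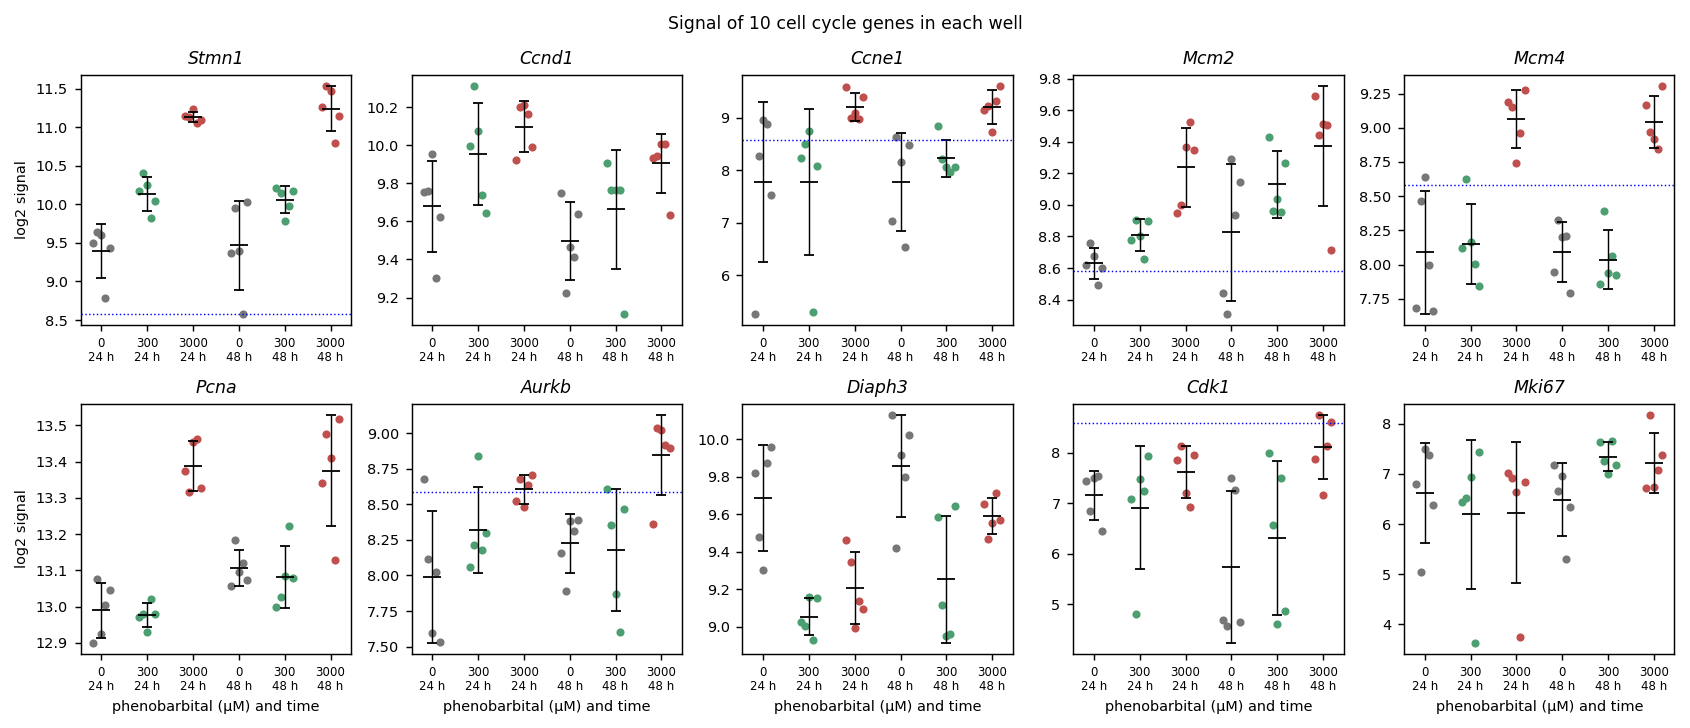
Log2 signal of 10 genes in each well by phenobarbital dose (0 for vehicle) and time, with y axes that differ between genes. Points are wells (5 per group), bars are the mean and SD, and the dotted line is the filter level of 8.58 where it falls within the axis. Stmn1 steps up with dose at 24 h, Diaph3 lies lowest at 300 µM, and Cdk1 and Mki67 scatter below or around the line.

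Diaph3 was the one gene called at the lower dose at both times, and it was lower. It encodes a formin, a protein that nucleates and extends actin filaments and takes part in cytokinesis. At 24 h the log2 signals were 9.82, 9.48, 9.30, 9.87 and 9.96 in vehicle wells, 9.02, 9.01, 9.16, 8.93 and 9.15 at 300 µM, and 9.46, 9.34, 8.99, 9.14 and 9.09 at 3000 µM. The corresponding 48 h signals were 10.13, 9.42, 9.91, 9.80 and 10.02 in vehicle wells, 9.58, 9.12, 8.95, 8.96 and 9.65 at 300 µM, and 9.65, 9.47, 9.55, 9.72 and 9.57 at 3000 µM. The lowest group means were at 300 µM at both times, 9.05 and 9.25, against 9.21 and 9.59 at 3000 µM.

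The change of Diaph3 at 300 µM was -0.63 at 24 h (SE 0.15, limma adjusted p 0.0123), with no overlap between wells, and -0.60 at 48 h (adjusted p 0.0279). At 3000 µM it was -0.48 at 24 h (adjusted p 0.0128) and -0.27 at 48 h (95% interval -0.57 to 0.040, adjusted p 0.167). Neither comparison of the doses with each other was called for Diaph3. The call at 300 µM and 48 h was lost in 7 of the fits that left out 1 array, with -0.54 (adjusted p 0.102) without array 1 of the vehicle group, and the call at 24 h was kept in every setting tried.

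Kif11, the motor that separates spindle poles, was at 0.014 at 24 h and rose by 0.41 at 48 h (SE 0.142, adjusted p 0.0217). Without array 4 of the vehicle group it was 0.32 (adjusted p 0.0861), and without array 5 of the 3000 µM group 0.35 (adjusted p 0.0674). A second Kif11 probe set, too dim to test, was at -0.62 at 24 h and 0.090 at 48 h. Prc1, which bundles the microtubules of the central spindle, was at 0.83 at 24 h (adjusted p 0.211) and 1.22 at 48 h (SE 0.494, adjusted p 0.0477). Its means at 48 h, 6.93 under vehicle and 8.16 at 3000 µM, both lay below the filter level. Prc1 entered the test only through the 3000 µM group at 24 h (mean 8.91), so the size of its change at 48 h is uncertain. Its 48 h wells spread from 5.22 to 7.90 under vehicle and from 6.87 to 9.20 at 3000 µM. The call was lost in 18 of the fits that left out 1 array, with 0.80 (adjusted p 0.201) without array 5 of the vehicle group. It was also lost without the arrays that stood apart (1.19, limma adjusted p 0.0804).

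Mki67, the antigen Ki-67 used to count cycling cells, was near background. Its log2 signals at 24 h were 6.80, 5.04, 7.49, 7.38 and 6.38 in vehicle wells, 6.43, 6.52, 6.95, 3.63 and 7.44 at 300 µM, and 7.02, 6.91, 6.64, 3.74 and 6.83 at 3000 µM. At 48 h they were 7.17, 6.66, 6.95, 5.31 and 6.33 in vehicle wells, 7.63, 7.25, 6.996, 7.65 and 7.19 at 300 µM, and 6.72, 8.17, 6.75, 7.08 and 7.38 at 3000 µM. Every well lay below the filter level and the groups overlapped. Top2a, the topoisomerase that untangles sister chromatids, and Kif20a, a motor of cytokinesis, were near background too, with group means of 6.58 to 7.32 and 5.18 to 6.62.

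The difference between the effects of 3000 µM at 48 h and at 24 h was itself tested with limma, and 0 of 30 genes were called, where 4.15% of all probe sets were called. At an unadjusted p under 0.05, 3 genes had a lower effect at 48 h (Ccne2, Cdkn1b and Mcm7) and 0 a higher one. A call at 1 time and not at the other, as for Mcm3, Mcm6, Mcm7, E2f1 or Ccne2, is therefore not a shown difference between the times.

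Other genes of the same processes were read from 4 further lists, apart from the 44. They were tested under the same filter, so their counts too can lean toward genes high at 3000 µM. Their counts at 3000 µM stand beside the shares over all probe sets of 17.3% higher and 14.8% lower at 24 h and 19.5% higher and 19.9% lower at 48 h, and a count near those shares is no result about a list. Of 39 other replication and nucleotide genes measured, 28 were tested. At 3000 µM and 24 h 5 were higher and 3 lower, and at 48 h 8 were higher and 4 lower. The clamp loader subunit Rfc2 rose by 0.66 and 0.59 (adjusted p 6.43e-07 and 2.7e-06), the licensing inhibitor Gmnn by 0.74 at 24 h, and the single-strand binding subunit Rpa2 by 0.57 at 48 h. Rpa2 was itself lower in vehicle wells at 48 h than at 24 h (-0.54, limma adjusted p 0.0478). Rpa1, the large subunit of the same binding complex, fell by 0.93 and 0.65 (adjusted p 9.94e-09 and 3.4e-06), Mcm10 by 0.54 and 0.68, and Rnaseh2a by 0.58 and 0.29. The median change over the 39 was 0.15 at both times.

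Of 38 other mitosis genes, 18 were tested, with 4 higher and 0 lower at 24 h and 7 higher and 1 lower at 48 h. The kinetochore subunit Spc25 rose by 0.99 and 0.89 (adjusted p 0.000395 and 0.000966), the motor Kif22 by 0.57 and 0.63, and Bub3 by 0.22 and 0.21. Cdca8, another passenger complex member, rose by 1.53 (SE 0.559, limma adjusted p 0.0294) and the kinetochore subunit Spc24 by 0.61 at 48 h. Spc24 was itself lower in vehicle wells at 48 h than at 24 h (-0.58, adjusted p 0.00149). Vehicle means lay below the filter level for Cdca8 (7.35 at 48 h) and Spc25 (8.32 at 24 h and 8.05 at 48 h). The size of their changes is therefore uncertain. The condensin subunit Smc2 rose by 0.42 at 24 h and fell by 0.37 at 48 h. The median change over the 38 was 0.14 and 0.033.

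Of 29 other G1 regulators, 19 were tested, and the calls ran both ways. At 24 h 8 were higher and 5 lower, and at 48 h 5 were higher and 6 lower. Myc rose by 0.65 and 0.78 (adjusted p 7.96e-07 and 2.03e-08), E2f5 by 0.81 and 0.44, the stress gene Gadd45a by 0.58 and 0.70, and Wee1, which holds Cdk1 inactive, by 0.69 at 24 h. Cdkn1a, which encodes the kinase inhibitor p21, fell by 0.72 and 0.44 (adjusted p 8.12e-06 and 0.00239), and Ccng2, a cyclin of arrested cells, by 0.77 and 0.96. Tob1, an antiproliferative protein, fell by 0.29 and 0.67. Of 14 genes of the anaphase promoting complex, 13 were tested, with 0 higher and 2 lower at 24 h (Anapc13 by -0.42 and Anapc5 by -0.21) and 2 higher and 1 lower at 48 h (Anapc11 0.51, Anapc7 0.35 and Anapc4 -0.26). At 300 µM the 4 lists held 3 calls in all: Rfc2 (0.38) and Btg1 (-0.23) at 24 h and Spc24 (0.56) at 48 h. Over all probe sets 2.99% were called at 24 h and 1.54% at 48 h at that dose. These few calls are no result about the lists.

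The wells carried high hepatocyte signals, with group means of Alb between 16.25 and 16.63. At 3000 µM, 6 of 9 hepatocyte markers were lower at 24 h and 1 at 48 h, where 14.8% and 19.9% of all probe sets were lower. Fgb (-0.55 and -0.53) was lower at both times. The summed hepatocyte marker signal at 24 h was 588200 to 779700 in vehicle wells (median 605200) and 512900 to 553300 at 3000 µM. At 48 h it was 497800 to 592800 and 484800 to 819000 (median 525800 at 3000 µM). Whether the marker calls, or their difference between the times, rest on the arrays that stood apart was not tested. Of 9 macrophage markers, Cd68 (0.54 and 0.80) and Lyz2 (0.20 and 0.29) were higher at both times, and C1qa (-0.81) and C1qb (-1.62) were lower at 24 h. The summed macrophage marker signal ranged over 11710 to 13260 in vehicle wells and 12660 to 13990 at 3000 µM at 24 h, and over 9118 to 11420 and 11000 to 12660 at 48 h. Of 10 stellate markers 5 were tested and of 7 endothelial markers 1, with 0 called at 3000 µM against vehicle at either time, and the rest of these and all 6 lymphocyte markers were too dim to test. Against 300 µM, the stellate markers Col1a1 (-0.68, adjusted p 0.01, at 24 h) and Col3a1 (-0.40, adjusted p 0.0102, at 48 h) were lower. The summed stellate signal was 3345 to 4177 in vehicle wells and 2524 to 3354 at 3000 µM at 24 h, and 3566 to 4421 and 3175 to 3869 at 48 h. The macrophage markers Adgre1, Ptprc and Cd163 and all 6 lymphocyte markers were below the filter level in every group mean. Of 6 cholangiocyte markers only Epcam was tested, and it was lower by 0.14 at 48 h. Any part of other cell types in the changes of the cell cycle genes was not tested.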

How the data were processed

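Total RNA of 30 wells was hybridised to Rat Genome 230 2.0 arrays, 1 array per well, and the deposited values are probe set intensities made with MAS5, per the submitters' processing notes, on a linear scale and without detection calls used here. The genome build behind the probe sets is not given in the sources used here. Of 31099 probe sets, 57 controls were left out. Log2 was taken with no constant. A probe set was tested where the highest of its 6 group means was at least 8.58, the median of all values (a signal of 384). All 6 group means were fitted together with limma 3.58.1 in R 4.3.3 (eBayes with trend and robust), and 2-sided p-values were adjusted by Benjamini-Hochberg over 16596 probe sets in each of 8 comparisons. The fit was tested on simulated data. The members and lists were chosen with earlier results of these data known. Every well was given for the genes called in both comparisons of 3000 µM with vehicle with the largest changes (up to 10), those called at 300 µM, and Ccnd1, Pcna, Cdk1 and Mki67. Ccne2, Cdkn1b and E2f1 were added after their values were seen. Of each other list, up to 4 called genes with the largest change were named per comparison, with their value at the other time where called. Gene symbols come from the platform annotation, which gave 20826 probe sets 1 symbol, 436 several and 9780 none. The number of arrays limits the precision, which the SE and intervals state.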

Additional observations from a re-analysis of the deposited data

Results flagged for a closer look

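Of 192 groups of 5 wells examined over 32 genes, 17 (8.85%) held a well whose gap to its nearest neighbour was large for the range of the group, where chance gives about 1 in 20. All values are log2 signals. Among the groups that enter the calls at 3000 µM, the 48 h wells included low values for Ccnd1 (9.634, array 5), Mcm2 (8.715, array 5), Rrm1 (9.168, array 4, which stood apart in its hybridization controls), Aurkb (8.358, array 1) and Kif11 (9.033, array 3). In vehicle wells at 24 h, Stmn1 was low on array 4 (8.78) and Cenpf on array 2 (7.935).

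The remaining wells were mostly at 300 µM. At 24 h Cdk4 was high on array 2 (12.65) and Mcm5 on array 3 (9.127), while Ccne1 was low on array 4 (5.306) and Bub1 on array 3 (7.117). At 48 h Ccnd1 was low on array 5 (9.115), Ccne1 high on array 1 (8.84) and Cdk2 high on array 5 (9.215). Among the genes near background, Cdk1 was low at 300 µM and 24 h on array 2 (4.817), and Mki67 was low on array 4 at 24 h both at 300 µM (3.626) and at 3000 µM (3.735).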

How the results depend on the processing

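Of 28 results for single genes, 13 kept their call in every setting where the gene was tested and 0 reversed, over 10 other settings and 30 fits that each left out 1 array. The 13 were Pcna, Mcm4 and Stmn1 at 3000 µM at both times, Mcm2, Mcm7 and Diaph3 at 3000 µM and 24 h, Ccne2, Cdkn1b and Mcm6 at 3000 µM and 48 h, and Diaph3 at 300 µM and 24 h. At 3000 µM and 48 h the count of higher genes was 6 with the filter on the mean over all arrays and 7 with the compared groups alone, which tests fewer genes or arrays, and the count of lower genes was 0 with the second brightest probe sets. At 24 h the count of lower genes was 2 with array weights and 2 without the arrays that stood apart. For 3000 against 300 µM, the filter on the mean gave 3 higher at 24 h and 4 at 48 h, array weights and the compared groups alone each gave 1 lower at 24 h, and the second brightest probe sets 0 lower at 48 h. At 300 µM and 48 h, the count lower was 0 with no filter and 0 with the compared groups alone, and the count higher 1 with the set of title numbers as a block and 1 with array weights. Between the vehicle groups the count higher was 0 with array medians centred, with no filter, without the arrays that stood apart and with the second brightest probe sets, and 2 with the title number block and with array weights. The causes of these shifts were not tested. With 1 array left out, the counts ranged from 0 to 1 (higher) at 300 µM and 24 h, 0 to 1 (higher) and 0 to 1 (lower) at 300 µM and 48 h, 1 to 2 (lower) at 3000 µM and 24 h, 8 to 14 (higher) at 3000 µM and 48 h, 4 to 8 (higher) and 0 to 1 (lower) for 3000 against 300 µM at 24 h, and 0 to 2 (higher) between the vehicle groups. Centring array medians moved the share of higher probe sets among all calls from 53.9% to 67.0% at 3000 µM and 24 h, from 53.3% to 66.7% for 3000 against 300 µM at 24 h, from 57.5% to 67.3% and from 52.9% to 66.9% at 300 µM at 24 h and 48 h, from 56.2% to 36.6% between the vehicle groups and from 33.3% to 17.9% for the difference of the 3000 µM effects. Calls of single genes were also lost with the title number block (Aurkb at 3000 µM and 24 h, adjusted p 0.051, and Prc1 at 48 h, 0.0506), with no filter (Ccne1 at both times, Aurkb at 24 h, E2f1, Rrm1 and Prc1 at 48 h, and Diaph3 at 300 µM and 48 h), with array weights (Ccne1 at both times, E2f1, Kif11 and Prc1 at 48 h) and with the compared groups alone (Ccne1 and Aurkb at 24 h, E2f1, Mcm2, Mcm3, Rrm1 and Kif11 at 48 h, and Diaph3 at 300 µM and 48 h). The labels do not say what the title number counts, so the block is not a documented pairing of wells. Genes near background, 12 of 42, could not be resolved at this signal.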
